A study of Caenorhabditis elegans with 4 samples.

Results

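The sites described here are peaks called for CEC-3 on the right arm of chromosome II of the nematode *Caenorhabditis elegans*, from chromatin immunoprecipitation and sequencing (ChIP-seq). CEC-3 is the product of T09A5.8, which the gene table of assembly WBcel235 names *cec-3* and itself places on chromosome II. The members are the peaks of the deposited whole-series list whose midpoint lies beyond position 10186134 of II. They number 667 of the 14075 peaks of that list, or 4.74%. With the length of II taken to the largest peak end in any list, 15279201, the arm makes up the last 33.3% of the chromosome, 5.09 Mb. The rule uses position alone and no score. All positions are on WormBase WS220.

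The ChIP group is *fem-2(b245)* III hermaphrodites, labelled as young adults that contain a germline and kept at 20 °C, precipitated with an affinity-purified polyclonal rabbit antibody against T09A5.8, with 2 replicates. The input group is DNA of the same strain, stage and temperature without precipitation, also with 2 replicates, and it has no peak list. All 4 samples carry the mutation, so there is no wild type here. *fem-2* encodes a protein phosphatase that promotes male development and sperm formation, and b245 is a temperature-sensitive allele. The growth protocol speaks of gravid adults, which the stage label does not. Chromatin came from whole animals, so a site bound in a few cells and a site bound weakly in many cannot be told apart.

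CEC-3 has a chromodomain, a fold with which many chromatin proteins read methylated lysines on histone tails, and it binds histone H3 methylated at H3K9, the mark of heterochromatin. Worm chromosomes have no single centromere. Their arms are richer in repeats and in H3K9 methylation than their centres, which hold more of the broadly expressed genes, and arms tend to lie at the nuclear edge. CEC-3 is a reader of the mark and not one of the enzymes that write it.

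Peaks lay unevenly on the arm, with a sparse inner stretch, a dense belt 2 Mb long, a thin stretch and a dense tip. The arm is a cut by length alone. Replicate 1 had 188 peaks on the arm and replicate 2 had 202, beside the 667 members. Peaks of replicate 1 covered 10.4% of the arm, those of replicate 2 covered 10.7% and the members covered 9.83%. The lists marked similar amounts of DNA, which was not all the same DNA. Of the bases under members, 74.5% lay under peaks of both replicates and 14.2% under a peak of neither. Of the bases that the replicates shared, 80.7% lay under a member. Peaks of replicate 1 had a median width of 1840 bp and those of replicate 2 one of 1892 bp. The members had a median width of 389.0 bp and ranged from 146 to 14701 bp. The peak nearest to the inner limit on its arm side lay at 10247673 to 10248519, with a score of 15.44, and the nearest on the centre side at 10174415 to 10175000, with a score of 34.62. A score is the number the authors' peak caller gave each peak. Its scale is not stated, and it differs between the replicate lists and the whole-series list.

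**Figure D1:**
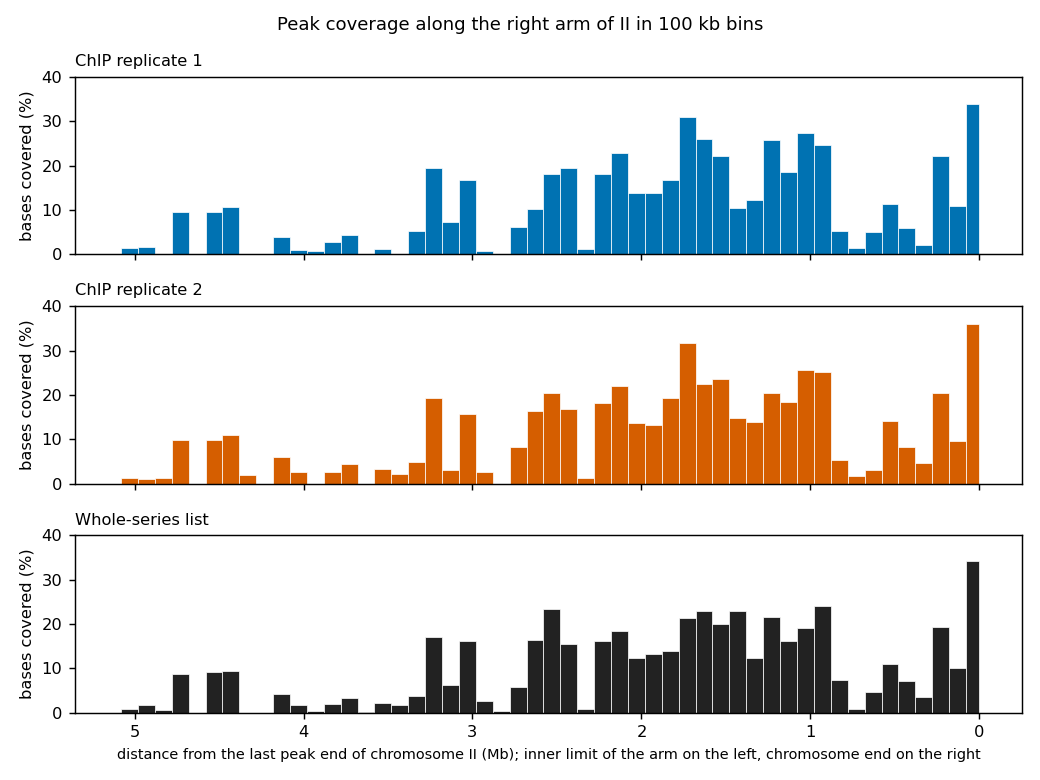
Percent of bases under a peak (vertical axis) in bins of 100 kb along the right arm of II, by distance in Mb from the last peak end, with the inner limit of the arm on the left. The first bin is 13866 bp long and the last 79201 bp. Each panel is 1 list, and in all 3 the inner stretch is sparse and the bin at the chromosome end is the most covered, at 34.0% (replicate 1), 36.1% (replicate 2) and 34.2% (whole-series list).

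The sparse inner stretch ran from the limit of the arm to 12 Mb. It is 35.6% of the arm and held 66 of the 667 members, or 9.90%, with 20 peaks in replicate 1 and 25 in replicate 2. Its peak density was 12.4 ± 1.95 per Mb in the replicates (SD, n = 2), and peaks covered 3.16 ± 0.365% of it. The centre of II had nearly the same values, 11.4 ± 0.833 per Mb and 3.12 ± 0.179% covered (SD, n = 2). From 12 to 12.50 Mb the density was 33.0 ± 1.41 per Mb. The belt from 12.50 to 14.50 Mb had 61.8 ± 2.47 peaks per Mb and was 17.4 ± 0.217% covered. It is 39.3% of the arm and held 429 members, or 64.3%. The belt was not continuous. From 12.90 to 13 Mb it was 0.854% covered in the whole-series list and 1.27% in each replicate. Density was 26.0 ± 2.83 per Mb from 14.50 to 15 Mb, with 5.76 ± 0.784% covered. Inside the sparse inner stretch, 10.50 to 11 Mb was covered about as much, at 6.25 ± 0.345%. The tip beyond 15 Mb had 69.8 ± 2.53 peaks per Mb and was 21.2 ± 0.396% covered (SD, n = 2 throughout). These limits were set on the same peaks, so no test of them was made. The median score of members was 5.40 in the sparse inner stretch, 6.36 from 12 to 12.50 Mb and 6.72 in the belt. It was 5.33 from 14.50 to 15 Mb and 5.25 in the tip. In the same order the median widths were 336.5, 474.0, 400.0, 406.0 and 298.0 bp. The tip was the densest stretch and had the lowest median score and the smallest median width.

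Divided at its middle, 12.73 Mb, the arm was denser on the outer side. The inner side includes the whole sparse inner stretch, which was about as dense as the centre of II. The outer side had 138 peaks in replicate 1 and 144 in replicate 2, and the inner side had 50 and 58. The density was 55.4 ± 1.67 per Mb on the outer side and 21.2 ± 2.22 on the inner side, a log2 ratio of 1.39 ± 0.108 (SD, n = 2), or 2.62-fold. Replicate 1 gave a log2 ratio of 1.46, with a 95% exact interval of 0.99 to 1.96. Replicate 2 gave 1.31 (0.86 to 1.78), and the whole-series list gave 1.56 (1.30 to 1.82). The largest adjusted p over these 3 lists was 1.6e-09 (two-sided exact binomial test, Benjamini-Hochberg over 9 tests). This test and its intervals take peaks as independent, which neighbours are not, and cover counting error only. With 2 replicates, an exact sign-flip test over the replicates cannot go below p = 0.5. With only the last 25% of the arm as the outer side, the log2 ratio was 0.65.

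Across the 52 bins of 100 kb, coverage in replicate 1 and replicate 2 had a Spearman's rho of 0.964, and neighbouring bins share libraries and domains. The first and the last bin are shorter, 13866 and 79201 bp. The most covered bin of the whole-series list was the short last one, from 15.20 Mb, at 34.2%, with 34.0% in replicate 1 and 36.1% in replicate 2. Next came 14.30 to 14.40 Mb, at 24.0%, with 24.6% and 25.1%. The bin from 12.70 to 12.80 Mb was covered at 23.5%, with 18.2% in replicate 1 and 20.4% in replicate 2. The bin from 13.60 to 13.70 Mb was covered at 23.0%, with 26.0% and 22.5%. The bin from 13.80 to 13.90 Mb was also covered at 23.0%, but at 10.4% in replicate 1 and 14.8% in replicate 2. No other bin had so large a surplus in the whole-series list, 10.4 percentage points over the mean of the replicates. The opposite held from 13.50 to 13.60 Mb, where the replicates covered 31.0% and 31.8% and the whole-series list 21.4%. The 10 most covered bins held 44.4% of the bases that the whole-series list covered on the arm. No list had a peak base in 3 bins, the short first one among them.

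The longest stretch with no member ran from 10852135 to 11105975, 253.8 kb. A single peak of replicate 2 lay wholly inside it, at 10936107 to 10938145 with a score of 69.01, and none of replicate 1. The next 4 stretches were 133.1 kb from 10248520, 128.4 kb from 11827383, 128.0 kb from 14539739 and 127.2 kb from 11552692. None of these 4 held a whole peak of either replicate. Of the 5 stretches, 4 lie in the sparse inner part and 1 in the thin stretch before the tip.

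The arm was less dense than the left arm of II and denser than its centre. The replicates gave 36.9 and 39.7 peaks per Mb on the right arm, against 53.2 and 55.6 on the left arm and 10.8 and 12.0 in the centre. The groups of values did not overlap. The log2 ratio of the right arm over the left was -0.51 ± 0.0291 and that of the right arm over the centre was 1.75 ± 0.0324 (SD, n = 2). The larger adjusted p of the 2 replicates was 2.7e-04 over the left arm and 6.0e-18 over the centre (two-sided exact binomial tests, Benjamini-Hochberg over 9 tests, counting error only). In the whole-series list the right arm had 131 peaks per Mb against 234 on the left arm, a log2 ratio of -0.84, and 29.6 in the centre, a log2 ratio of 2.14. With each list limited to scores at or above its median, which leaves fewer peaks, the mean ratio of the replicates over the left arm was -0.43. The larger adjusted p was then 0.054 in the same exact test, so the call did not hold in both replicates at 0.05. Peaks covered 10.5 ± 0.217% of the right arm, 17.5 ± 0.967% of the left arm and 3.12 ± 0.179% of the centre (SD, n = 2).

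**Figure D2:**
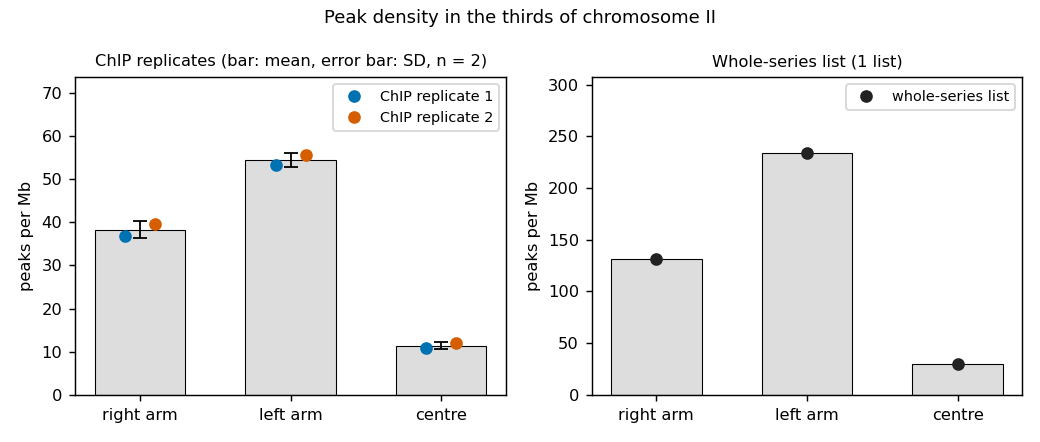
Peaks per Mb (vertical axis) on the right arm, the left arm and the centre of II, for the ChIP replicates (left panel, bars are means and error bars SD, n = 2) and for the whole-series list (right panel, 1 list). The right arm lies between the left arm and the centre in every list, at 36.9 and 39.7 peaks per Mb (replicates) and 131 (whole-series list).

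Most replicate peaks on the arm were found in both replicates. Of the 188 replicate 1 peaks on the arm, 165 had a partner in replicate 2, which is 87.8% with a 95% Wilson interval of 82.3 to 91.7%, against 89.0% of all peaks of that list. Of the 202 replicate 2 peaks, 167 had a partner in replicate 1, which is 82.7% with an interval of 76.9 to 87.3%, against 85.3% of all. Both intervals hold the value of the whole series. An overlap here is at least 1 bp. In bases, the replicates shared 462386 bp of the arm, or 87.5% of what replicate 1 covered there and 85.0% of what replicate 2 covered. The shared bases made up 75.8% of the union on the right arm, 75.3% on the left arm and 83.5% in the centre.

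Where a peak of 1 replicate met a single partner in the other, the edges lay close together. On the arm there were 139 such pairs, with a median difference of 93.0 bp at the start and 84.0 bp at the end. Both edges lay within 200 bp in 88 pairs, or 63.3%, and over the whole series in 56.3%. The scores had a Spearman's rho of 0.909 over these pairs, which share 2 libraries, and the widths one of 0.891. Many replicate scores pile up at 3100, and 22 of the pairs hold a score of 3100 or more. Over the other 117 pairs the rho of the scores was 0.856. On the arm 23 peaks of replicate 1 (12.2%, against 12.8% of all its peaks) and 30 of replicate 2 (14.9%, against 14.9%) had a score of 3100 or more. Among the 117 pairs with both scores below 3100, replicate 2 had the higher score in 85, and the median ratio of replicate 2 over replicate 1 was 1.33. Replicate 2 was also higher in 113 of 165 such pairs on the left arm and 35 of 46 in the centre. Over the whole series, which includes the arm, it was higher in 1458 of 2170. The higher scores of replicate 2 were therefore not particular to the arm.

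Sites that a single replicate found had the lower median score, on the arm and over the whole series. In replicate 1 the median score was 93.0 over the 23 peaks without a partner and 387 over the 165 with one. Over all its peaks these medians were 86.3 and 469. In replicate 2 the median was 110 over the 35 without and 502 over the 167 with one, against 104 and 598 over all. Over the whole series, unshared peaks reached a score of 3100.00 in each replicate. The 3 highest unshared peaks of replicate 1 were at 15196511 to 15198257 with a score of 288.70, at 14022735 to 14024458 with 270.06 and at 12184920 to 12186764 with 237.76. Those of replicate 2 were at 12711455 to 12713403 with 349.20, at 12300630 to 12302409 with 318.19 and at 12649035 to 12652029 with 301.35. All 6 overlapped whole-series peaks, between 2 and 4 each. The whole-series list also overlapped every one of the 188 peaks of replicate 1, against 99.7% of all its peaks, and 200 of the 202 of replicate 2, against 99.5% of all. The 2 exceptions were the peak in the longest empty stretch and one at 13046548 to 13047397 with a score of 56.89.

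Seen from the whole-series list, members with a partner in both replicates were the most numerous class. Of 667 members, 316 overlapped a peak of both, or 47.4% (95% Wilson interval 43.6 to 51.2%), against 53.8% of the whole-series list. With peaks widened by 250 bp on each side the share was 55.5%. A further 54 overlapped replicate 1 only (8.10%, against 8.47%) and 80 replicate 2 only (12.0%, against 10.7%). The other 217 overlapped neither, or 32.5% (29.1 to 36.2%), against 27.0%. The share in both was 50.7% (47.8 to 53.5%) on the left arm and 58.9% (51.0 to 66.5%) in the centre. The intervals of the 2 arms overlap. The right-arm intervals for both and for neither do not hold the whole-series shares of 53.8% and 27.0%. Wilson intervals cover counting error only. The median member in both scored 10.9 and was 728.5 bp wide. Such members held 75.9% of the bases of all 667, against 72.4% of bases over the whole series. The median member in neither scored 4.35 and was 231.0 bp wide, and these held 13.4% of the bases, against 16.2%. By peaks the share in both was lower than over the whole series, and by bases it was higher. Neither difference was tested.

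**Figure D3:**
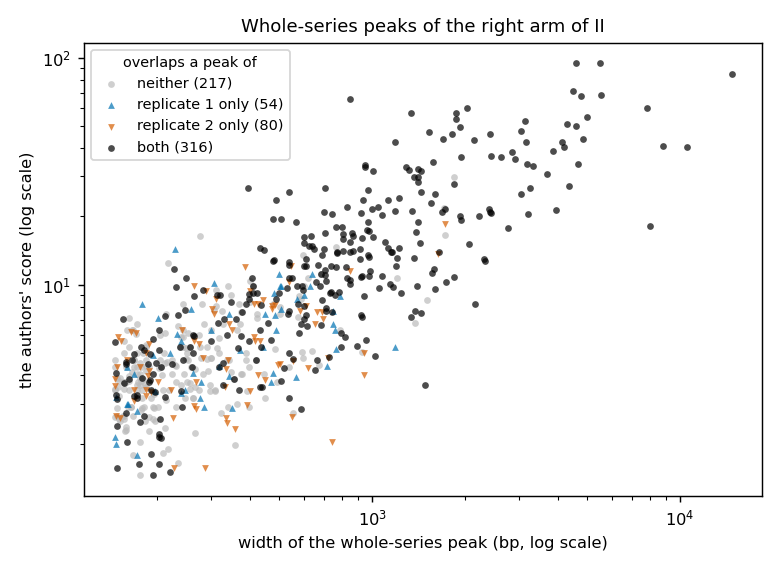
The authors' score (vertical axis, log scale) against width in bp (horizontal axis, log scale) for the 667 whole-series peaks of the right arm of II, 1 point per peak, marked by the replicates whose peaks they overlap. The 217 peaks in neither replicate gather at low scores and small widths, with a highest score of 29.90, and the 316 in both reach 94.37.

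Members with higher scores were more often in both replicates. All 14075 peaks were ranked by score into 4 classes of nearly equal number. In the lowest class 46 of 215 members were in both, or 21.4% (95% Wilson interval 16.4 to 27.4%), against 28.9% in the whole series. In the next classes the shares were 29.7% (23.0 to 37.5%), against 37.3%, and 56.6% (48.8 to 64.1%), against 65.7%. In the highest class 136 of 145 members were in both, or 93.8% (88.6 to 96.7%), against 85.2%. The left arm had 28.7%, 39.0%, 67.6% and 88.9% in the same order. The lowest class held 32.2% of the members and the highest 21.7%. These shares were not tested, and the whole series includes the members. The whole-series list is taken as pooled from the same ChIP libraries, so its scores and the overlap are not independent.

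**Figure D4:**
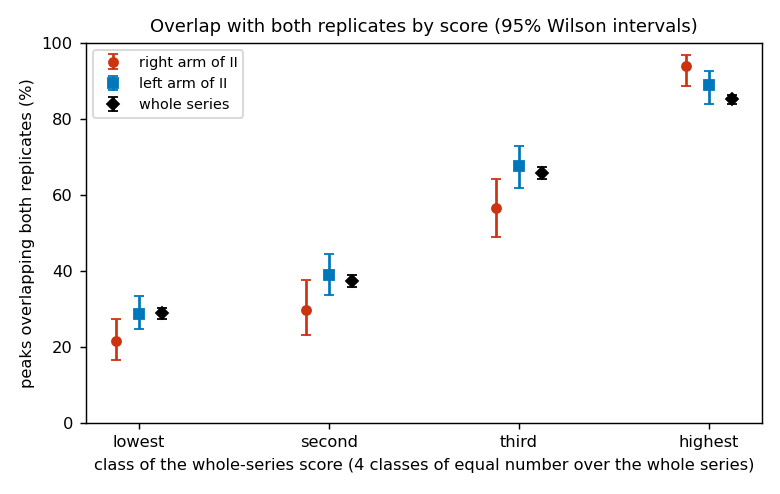
Percent of whole-series peaks with a partner in each replicate (vertical axis) by class of score (horizontal axis), for the right arm of II, the left arm of II and the whole series, with 95% Wilson intervals that cover counting error only. The right arm has 21.4% in the lowest class and 93.8% in the highest, and the whole series has 28.9% and 85.2%. Score and overlap are not independent, since the lists are taken to share their ChIP libraries.

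The 10 highest-scoring members found in both replicates lie along the whole arm. The highest spans 15041478 to 15046084, with a score of 94.37, and ranks 44 of 14075 in the whole-series list. Replicate 1 has a peak around it from 15039151 to 15047052, and replicate 2 has one from 15041344 to 15046172. The next, at 12050586 to 12056063 with a score of 94.27, lies just beyond the sparse inner stretch. The replicate 1 peak around it spans 12050302 to 12057466, and the replicate 2 peak spans 12050293 to 12056327. The member at 10831770 to 10836256, with a score of 71.63, stands inside the sparse stretch. It shares its replicate peaks with the members at 10827823 to 10830986, which scored 42.35, and at 10831192 to 10831622, which scored 6.33. All 3 lie in a peak of replicate 1 from 10827582 to 10836567 and in one of replicate 2 from 10827558 to 10836653. The longest stretch of the arm without a member begins 15.9 kb beyond this site.

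Of the others, 6 lie in the belt. They are at 13026402 to 13031941 (score 68.36), 13589608 to 13594361 (67.69), 13575569 to 13576415 (65.42), 13187629 to 13195424 (60.19), 13898466 to 13900499 (59.98) and 14235698 to 14237034 (56.92). The remaining one, at 15204751 to 15219451 with a score of 85.10, is described with the wide peaks. In replicate 1, 8 of the 10 carried the pile-up score of 3100 and in replicate 2, 9 did. The member at 13575569 is only 847 bp wide and had a replicate score of 1059.91 in replicate 1 and 1135.20 in replicate 2. The member at 14235698 had 2432.67 in replicate 1 and 3100 in replicate 2.

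Wide peaks were few. Of the members, 2 were 10 kb wide or more, 0.300% against 0.540% of the whole-series list. In replicate 1 there were 3 such peaks (1.60%, against 5.29% of all) and in replicate 2 also 3 (1.49%, against 4.86%). The left arm of II had 10 in replicate 1 (3.69%) and 11 in replicate 2 (3.89%), and the centre had 1 in each (1.82% and 1.64%). In the whole-series list the left arm also had 2 (0.168%). These differences were not tested. The widest member, at 15204751 to 15219451, is 14701 bp wide. Replicate 1 marked 15203605 to 15219686 there, 16082 bp, and replicate 2 marked 15203372 to 15219687, 16316 bp. These are the widest peaks of both replicates on the arm. The next, at 14321367 to 14331901 with a score of 40.43, was 10535 bp wide. Its replicate peaks were 11827 bp wide with a score of 1037.63 in replicate 1 and 11719 bp wide with 937.89 in replicate 2. The third, at 10703049 to 10711859 with a score of 41.01, is another isolated site of the sparse inner stretch. It had the pile-up score in both replicates.

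Other wide sites were divided differently in the lists. The replicate 1 peak from 13187333 to 13199288, 11956 bp wide, met 2 peaks of replicate 2, from 13187640 to 13195305 and from 13195655 to 13199086. The replicate 2 peak from 13289102 to 13299774, 10673 bp wide with a score of 195.28, met 2 peaks of replicate 1 with scores of 1060.48 and 1186.35 and 8 members. A low score in 1 replicate there stood beside a higher one in the other over the same bases. More than 1 member overlapped 53.7% of the replicate 1 peaks and 54.0% of those of replicate 2, with up to 7 and 8 members under a peak. Over all peaks of either replicate the share was 62.2%, and on the left arm it was 65.3% and 65.0%. The median gap between neighbouring members was 633.5 bp, against 361.0 bp on the left arm and 975.5 bp in the centre. Gaps of 500 bp or less were 302 of 666, or 45.3%, against 56.2% and 44.0%. Joining members over such gaps gave 365 domains, of which 147 joined several members and 5 reached 10 kb. Joined in the same way, the replicates had 168 and 174 domains, also with 5 of 10 kb or more each. The widest joined domain ran from 15203309 to 15220955, 17647 bp, and was 91.1% covered in replicate 1 and 92.5% in replicate 2. The next, from 13025055 to 13038219, joined 10 members and was 93.1% and 81.5% covered.

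**Figure D5:**
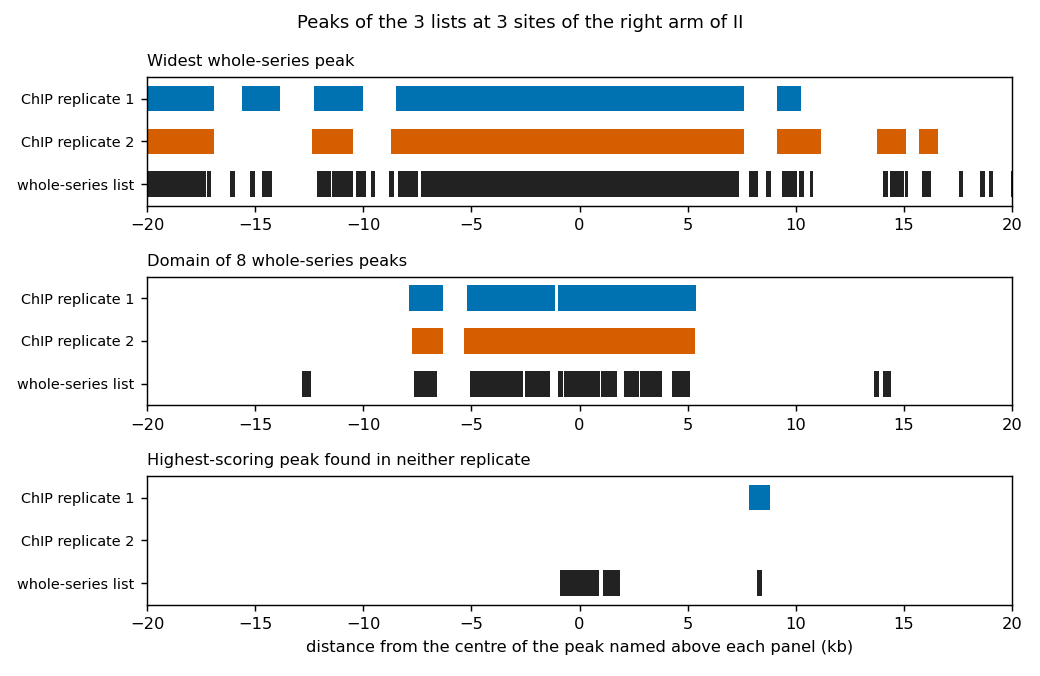
Peaks of the 3 lists as blocks along 40 kb at 3 sites of the right arm of II, by distance in kb from the centre of the widest member (top), of the replicate 2 peak that holds 8 members (middle) and of the highest-scoring member in neither replicate (bottom). At the top all 3 lists mark the site, in the middle replicate 1 has 2 peaks where replicate 2 has 1 and the whole-series list 8, and at the bottom only the whole-series list marks the centre.

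The 5 highest-scoring members found in neither replicate had scores of 14.66 to 29.90, against a median of 4.35 over all 217. The first, at 12603803 to 12605645, was 1843 bp wide with a score of 29.90. The nearest peak of replicate 1 was 6902 bp away and that of replicate 2 was 20242 bp away. The second, at 14337517 to 14339222 with a score of 21.82, lay 5263 bp from a peak of replicate 1 and 5481 bp from one of replicate 2. The other 3 were at 12747516 to 12749240 (score 16.63), 13495764 to 13496040 (16.37) and 13989193 to 13989954 (14.66). All 5 lie in the belt, which holds 64.3% of the members. The nearest replicate peaks to the last of them were 1957 and 1972 bp away.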

How the data were processed

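CEC-3 ChIP-seq peaks of *fem-2(b245)* adults were used as deposited. The submitters' processing notes name BWA and ce10. Positions are on WormBase WS220, per the file headers, and the files' source column names MACS for each replicate and MACS v2 for the whole series. Each peak has a deposited score. The sources used here do not give its scale, the control, the thresholds or the way both replicates were combined for the whole series. No file gives read counts, so depth is unknown. No label calls the replicates separate cultures, so their spread may be technical. No peak had the same start and end in both replicates.

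Members were taken by midpoint with no filter. Arms and centre are 33.3% of the length each. Density ratios were tested with two-sided exact binomial tests against length, 9 in all (3 ratios in 3 lists). Named sites are the 10 highest-scoring members in both replicates, the 5 highest in neither, the 3 widest peaks of each list, the 3 highest without a partner in each replicate, and the 5 longest empty stretches and most covered 100 kb bins. Replicate peaks with no whole-series peak, runs of members, the score classes, the stretches of the arm with the values set beside them and the neighbours of the member at 10831770 were added after their values were seen. The members, rules and tests were chosen with earlier results of these data known. Functions were tested on simulated peaks. Genes, repeats and sequence under the peaks were not analysed here, since the gene table at hand is of WBcel235, a later build. The tools were matplotlib 3.10.9, statsmodels 0.14.6, scipy 1.17.1, pandas 2.3.3, numpy 2.4.6 and Python 3.11.15.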

Additional observations from a re-analysis of the deposited data

How the results depend on the processing

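All 3 density ratios kept their direction under every alternative run. Over the left arm the mean log2 ratio was -0.43 with each list limited to scores at or above its median, which leaves fewer peaks. The larger adjusted p of the replicates was then 0.054 in the exact binomial test. By bases covered the ratio was -0.73. The cause was not tested. The ratio was -0.53 to -0.49 with either replicate left out. Over the centre it was 1.58 to 2.14 over all settings, and 1.73 to 1.77 with either replicate left out. The outer-over-inner ratio was 1.66 by bases covered and 1.31 to 1.46 with either replicate left out. The share of members in both replicates was 55.5% with peaks widened by 250 bp. It was 39.2% with the same limit on scores, which also removes replicate peaks. Against a single replicate it was 55.5 to 59.4%. The mean overlap of the replicates was 90.6% above the median score and 82.7 to 87.8% with either replicate left out. Coverage of the arm was 7.35% above the median score, 12.9% from 75% of the length outward, 9.83% in the whole-series list and 10.4 to 10.7% with either replicate left out. No paired analysis was possible because only the ChIP samples have peak lists, and the numbers they share with the input pair nothing here. Depth is unknown, so what it limits cannot be given.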

Other observations

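A run is a row of neighbouring members of the same overlap class, whatever the distance between them. Of 105 runs of members in neither replicate, 59 were single members. Members in both also formed 105 runs, 34 of them of a single member. No run length was worked out for members in random order. The longest run in neither held 19 members, from 13789697 to 13824488, a span of 34.8 kb. Their scores ranged from 1.45 to 13.57, with a median of 4.76, and their widths from 159 to 1505 bp. The whole-series list covered 25.5% of this span and each replicate 0%. It lies mostly in the bin from 13.80 to 13.90 Mb, where the whole-series list covered more than the replicates. Between 13790736 and 13812216 the run has no member. The next member beyond it, at 13824610 to 13826240, only just meets a replicate 2 peak from 13826231 to 13829723 with a score of 59.26. That peak overlapped 7 members, so the end of the run rests on the overlap rule of at least 1 bp. The next runs held 8 members each, from 12747516 to 12759806, 32.2% covered, and from 14414197 to 14480295, 3.22% covered. These runs were found after the values were seen, and what sets them apart was not tested.

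The longest run of members in both replicates held 16 members from 14269041 to 14308331, of which replicate 1 covered 53.5%, replicate 2 47.8% and the whole-series list 32.9%. Their median score was 7.49. The next held 13 members from 13695153 to 13740305, with a median score of 12.8. Replicate 1 covered 40.9% of it, replicate 2 39.9% and the whole-series list 34.8%.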
